A study of Homo sapiens with 414 samples.

Results

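Homologous recombination and the Fanconi anemia pathway were followed through 33 genes of a single-cell RNA-seq count table of LNCaP cells. The genes were chosen by name, as the partners and regulators of recombination repair and the proteins of the Fanconi pathway. Earlier results of these data were known when they were chosen. Their Ensembl rows were found through gene symbols. All 33 were among the 36135 genes of the table, 1 row each, and all 33 had enough reads to be tested.

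Homologous recombination repairs a broken chromosome by copying the intact sister. The broken end is trimmed to single-stranded DNA, BRCA1 and BARD1 with PALB2 bring in BRCA2, BRCA2 loads the strand-exchange recombinase, and helper proteins and motors let the filament search for and invade the sister. The Fanconi anemia pathway handles crosslinks between DNA strands: a core complex recognises the stalled fork and puts ubiquitin on FANCD2 and FANCI, and the lesion is then passed to nucleases and to recombination. Many genes of both pathways are known for transcription that peaks around S phase, and inherited mutations in several of them (BRCA1, BRCA2, ATM, PALB2, CHEK2) are known in prostate cancer.

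LNCaP is a human prostate carcinoma line that responds to androgens. Cells were transfected with an siRNA from IDT against SULT2B1, which encodes a sterol sulfotransferase (knockdown), or, as control, with an siRNA from Dharmacon that targets no gene, so that target and supplier differ together, and were harvested after 48 h. Live single cells were captured on a Fluidigm C1 plate for large cells in 3 batches that each held both arms. This gave 192 knockdown cells (66, 65 and 61 in batches 1, 2 and 3) and 209 control cells (76, 66 and 67). Within each batch the labels repeat well names in both arms. Each arm of a batch therefore appears to have had its own plate, and effects of arm and plate cannot be told apart. According to the labels, 2 of the 66 knockdown cells of batch 1 were read again in the sequencing run of batch 2; they are counted in batch 1. The series title concerns sensitivity to death caused by TNF, and the comparison here asks which genes differ between the arms; the labels name no TNF treatment of these cells.

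Cells had 169244 to 2353816 reads in genes, with a median of 1150826. Adding up the cells of an arm within a batch gave 6 libraries of 71630108 to 84359044 reads, and these, not cells, were the replicates (n = 3 each). Whether the batches were separate cultures is not in the labels, and the spread that p-values measure here may be technical. SULT2B1 itself had 13, 21 and 0 reads in the knockdown libraries, against 152, 109 and 332 in the control libraries (edgeR adjusted p = 0.268). Over 20% of reads were mitochondrial in 8 knockdown cells and in 35 control cells. The 8 luminal markers listed to check the cell line had summed levels of 2620 to 3947 CPM (read counts scaled to library size) in knockdown libraries and 4964 to 5998 CPM in control libraries, and KLK2 and KLK3 among them fell (edgeR adjusted p = 0.0446 and 0.0416). Their block adjusted p-values, with the batch number in the fit, were 0.0703 and 0.154. The keratin markers KRT8 and KRT18 went the other way, with every knockdown library above every control library and log2 fold changes of 0.81 and 0.61 (edgeR adjusted p = 0.0930 and 0.0641, DESeq2 adjusted p = 6.12e-04 and 2.01e-04). Basal, blood, endothelial and fibroblast markers were low beside the luminal markers. Their summed levels were at most 1.21, 0.0233, 11.2 and 4.27 CPM in any library. CD14 had 0 reads, and no row was found for the blood markers CD3E and HBB.

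Promoter sequence was looked at because many of the 33 genes are known for cell cycle transcription. Of the 33, 30 matched the RefSeq promoter table (GRCh38.p14), with 41 start sites between them. The windows ran from 250 bases before to 50 bases after each start and were searched on both strands for exact words: E2F words (TTTCGCGC, TTTGCGCG, TTTCCCGC, TTTGGCGC), the CHR words TTTGAA and TTCGAA, and the CCAAT box. The 130 bases that end just before the start are shown for the called genes BRCA2 and USP1 and for EXO1, RAD51AP1 and UBE2T, which hold such words there. They are written 5′ to 3′ on the strand of the gene, with E2F and CCAAT words, or their reverse complements, in capitals.
BRCA2 (chr13:32315378-32315507, plus strand): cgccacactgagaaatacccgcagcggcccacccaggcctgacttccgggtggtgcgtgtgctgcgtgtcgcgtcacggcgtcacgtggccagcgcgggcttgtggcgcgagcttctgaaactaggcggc
USP1 (chr1:62436265-62436394, plus strand): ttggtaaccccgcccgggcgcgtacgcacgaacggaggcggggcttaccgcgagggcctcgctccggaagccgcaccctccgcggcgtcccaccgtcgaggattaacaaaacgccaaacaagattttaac
EXO1 (chr1:241848074-241848203, plus strand): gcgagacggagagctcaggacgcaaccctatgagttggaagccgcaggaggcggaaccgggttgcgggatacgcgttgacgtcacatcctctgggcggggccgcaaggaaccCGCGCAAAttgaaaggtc
RAD51AP1 (chr12:4538760-4538889, plus strand): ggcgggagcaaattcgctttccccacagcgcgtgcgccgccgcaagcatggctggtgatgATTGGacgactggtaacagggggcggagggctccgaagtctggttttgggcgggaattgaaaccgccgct
UBE2T (chr1:202341937-202342066, minus strand): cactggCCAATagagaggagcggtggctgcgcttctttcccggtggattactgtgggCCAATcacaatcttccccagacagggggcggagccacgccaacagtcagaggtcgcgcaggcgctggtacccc

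The BRCA2 window holds none of the words. The stretch of USP1 as printed holds none either, but its searched windows hold a CCAAT box in reverse at -226 and a CCAAT box at 29 from the start at 62436395, and CHR words at -215 and -72 from a second start at 62437049. Within the printed stretches, EXO1 holds an E2F word, RAD51AP1 a CCAAT box in reverse and UBE2T a pair of CCAAT boxes. Of the 41 promoter windows of these genes, 4 (9.76%) held an E2F word, against 3.15% of all 35116 promoters. They belonged to EXO1, FANCC, FANCD2 and XRCC2. A CHR word was in 5 (12.2%), against 16.4% of all promoters, and a CCAAT box in 19 (46.3%), against 34.6%. A match is only a run of letters, and its absence says nothing about which factors bind.

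Across the 33 genes, the knockdown arm was lower for most, but few passed the test over all genes. The median log2 fold change, knockdown over control, was -1.01, against 0.01 over the 20326 genes tested, and 28 of 33 were negative. In edgeR's quasi-likelihood test with Benjamini-Hochberg adjustment, BRCA2 and USP1 fell (2 of 33), where 0.384% of all genes fell, and 0 rose, where 0.394% of all genes rose. With the batch number as a replicate block, 0 of the 33 passed. At an unadjusted p under 0.05, 15 of 33 were lower and 0 higher, where 7.08% of all genes were lower and 1300 of 20326 were higher. DESeq2 called 13 of 33 lower and 0 higher. Of the 18159 genes with a DESeq2 adjusted p, 4.31% were lower and 659 were higher.

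Counts that use only the order of the libraries are less tied to the model. Every knockdown library lay below every control library for 18 of 33 genes (54.5%), where the same held for 10.1% of all genes. Such a gene is also lower within each batch by construction, so a count within batches is not separate evidence. The same 18 genes were the ones lower in knockdown within all 3 batches, where 18.2% of all genes were. They are BRCA1, BRCA2, XRCC2, RAD54L, RAD54B, RAD51AP1, FANCA, FANCB, FANCL, FANCM, FANCD2, FANCI, UBE2T, USP1, BLM, EXO1, RAD50 and CHEK1. The batches were unequal in size of difference: the median over the 33 genes of log2(CPM + 1) in knockdown minus control was -0.998 in batch 1, -0.953 in batch 2 and -0.611 in batch 3. The levels by library and the order of the fold changes are plotted in the charts of CPM and of log2 fold change.

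**Figure D1:**
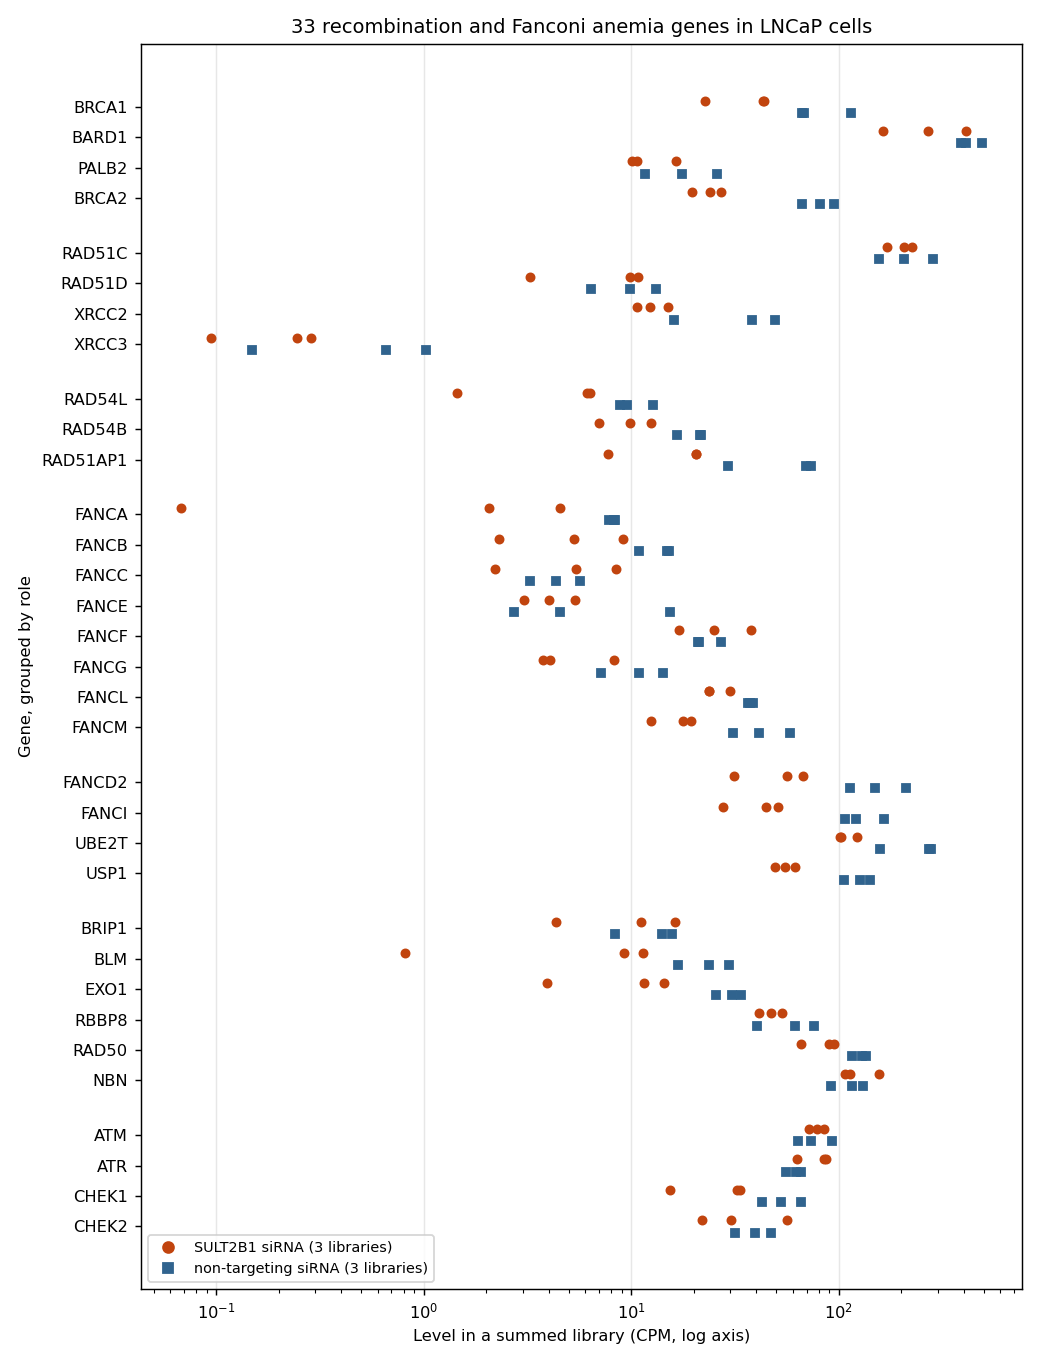
Level of each gene in each summed library, in CPM on a log axis, with genes grouped by role; circles are the 3 SULT2B1 siRNA libraries and squares the 3 non-targeting libraries. The ubiquitin cycle genes FANCD2, FANCI, UBE2T and USP1 have all knockdown circles to the left of all control squares, while ATM, NBN and RAD51C overlap.

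**Figure D2:**
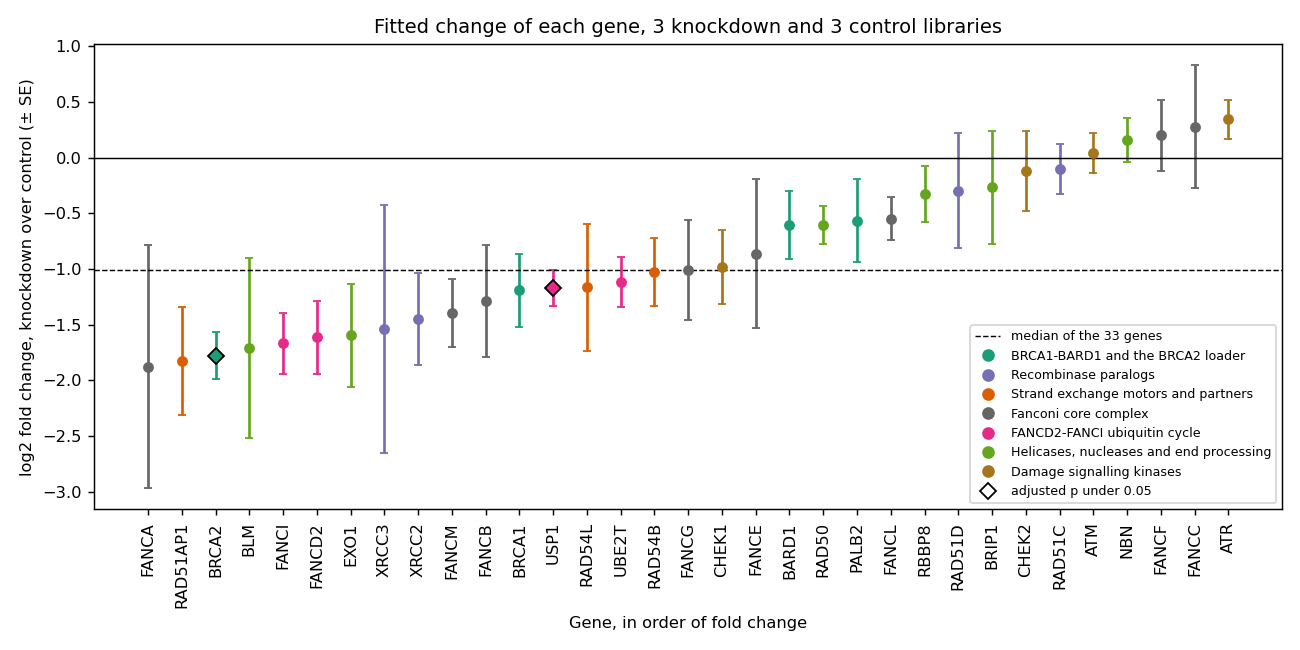
Fitted log2 fold change, knockdown over control, with its SE, for the 33 genes in order; colours are roles, and diamonds mark an edgeR adjusted p under 0.05. The dashed line is the median of -1.01, and only BRCA2 and USP1 are diamonds.

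The loading machinery comes first in the repair. BRCA2, which carries the recombinase to single-stranded DNA (chromosome 13, 32315474 to 32400266, plus strand, GENCODE 29 on GRCh38), had 24.0, 19.5 and 27.2 CPM in the knockdown libraries of batches 1, 2 and 3, against 81.5, 94.8 and 66.4 CPM in the control libraries. All 3 knockdown libraries were well below all 3 control libraries. Its log2 fold change was -1.78 (SE 0.212, edgeR adjusted p = 0.0153), and the adjusted p was 0.117 with the batch as a replicate block. The call also ended without any single library other than control batch 3, with adjusted p between 0.0581 and 0.0867 while the log2 fold change stayed between -1.89 and -1.65.

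BRCA1, the ubiquitin ligase that promotes resection and recruits PALB2, had 43.7, 22.7 and 43.0 CPM in knockdown libraries, against 115, 67.9 and 66.9 CPM in control libraries. The groups did not overlap, and the log2 fold change of -1.19 (SE 0.327) did not pass in edgeR (adjusted p = 0.166) but passed in DESeq2 (adjusted p = 0.00716). BARD1, its partner, was the most abundant of this group, with 164, 411 and 270 CPM in knockdown libraries, against 386, 409 and 492 CPM in control libraries. Here the arms overlapped, since knockdown batch 2 was about level with the control libraries (edgeR adjusted p = 0.458). PALB2, the bridge between BRCA1 and BRCA2, averaged 12.4 ± 3.52 CPM in knockdown and 18.4 ± 7.16 CPM in control (SD, n = 3 each) and overlapped.

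The recombinase paralogs form small complexes that stabilise the filament. RAD51C had 226, 171 and 207 CPM in knockdown libraries, against 206, 284 and 156 CPM in control libraries, with a log2 fold change of -0.10 (SE 0.224). The arms were interleaved. RAD51D averaged 7.99 ± 4.12 CPM in knockdown and 9.81 ± 3.38 CPM in control, also interleaved. XRCC2 averaged 12.7 ± 2.19 CPM in knockdown and 34.5 ± 17.0 CPM in control without overlap (log2 fold change -1.45, edgeR adjusted p = 0.180, DESeq2 adjusted p = 0.00903), though batch 3 held 15.0 CPM in knockdown and 16.1 CPM in control. XRCC3 was close to undetected, with 7 to 23 reads in knockdown libraries and 11 to 75 in control libraries. Its exons overlap 5756 bases of KLC1 on the other strand, and the strand setting of the counting is not given in the sources used here, so its reads are uncertain.

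The motors and partners act on the loaded filament. RAD51AP1, which stimulates strand invasion, had 20.5, 7.70 and 20.5 CPM in knockdown libraries, against 73.6, 69.7 and 29.3 CPM in control libraries. The groups did not overlap, and batch 3 showed the smallest gap. The log2 fold change was -1.83 (SE 0.484), which missed the threshold in edgeR (adjusted p = 0.154) and passed in DESeq2 (adjusted p = 0.00159). RAD54L, a DNA translocase, averaged 4.63 ± 2.76 CPM in knockdown and 10.4 ± 2.12 CPM in control. Its relative RAD54B averaged 9.77 ± 2.75 CPM in knockdown and 19.9 ± 2.93 CPM in control. Neither overlapped between arms or passed in edgeR (adjusted p = 0.444 and 0.194), and RAD54B passed in DESeq2 (adjusted p = 0.0236). RAD54B shares 3139 exon bases with FSBP on the same strand, so reads in that part of its 5313 exon bases cannot be told from those of that gene.

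The 8 genes of the Fanconi core complex split. FANCL, the ubiquitin ligase subunit and the most abundant of them by the mean over both arms, had 29.8, 23.6 and 23.7 CPM in knockdown libraries, against 38.8, 37.5 and 36.7 CPM in control libraries. The gap was small but clear of overlap (log2 fold change -0.55, SE 0.192, edgeR adjusted p = 0.268). FANCM, the translocase that anchors the complex to the fork, averaged 16.5 ± 3.66 CPM in knockdown and 43.5 ± 13.9 CPM in control (log2 fold change -1.40, SE 0.303). It did not pass in edgeR (adjusted p = 0.103) and passed in DESeq2 (adjusted p = 4.00e-04). FANCA averaged 2.22 ± 2.24 CPM in knockdown and 8.16 ± 0.300 CPM in control, and FANCB 5.58 ± 3.42 CPM in knockdown and 13.6 ± 2.36 CPM in control. Knockdown batch 2 held 5 reads of FANCA, against 607 in control batch 2.

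The other core genes overlapped between arms. FANCG averaged 5.36 ± 2.52 CPM in knockdown and 10.8 ± 3.59 CPM in control. FANCE averaged 4.14 ± 1.16 CPM in knockdown and 7.53 ± 6.83 CPM in control. In control batch 2 alone FANCE was at 15.3 CPM, with 70.0% of its reads there in 1 cell. Its log2 fold change was -0.86, against 0.19 without that library and -0.020 without cells of over 20% mitochondrial reads (edgeR adjusted p = 0.674, 0.952 and 0.995). FANCC averaged 5.36 ± 3.14 CPM in knockdown and 4.42 ± 1.21 CPM in control, and FANCF 26.6 ± 10.4 CPM in knockdown and 23.2 ± 3.45 CPM in control. None of the 8 passed the edgeR threshold, and 3 (FANCB, FANCL and FANCM) had an unadjusted p under 0.05.

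The ubiquitin cycle at the centre of the pathway was the role group with the lowest median, -1.39 over its 4 genes. USP1, the protease that takes ubiquitin off FANCD2 (chromosome 1, 62436297 to 62451804, plus strand), had 61.6, 55.2 and 49.6 CPM in knockdown libraries, against 142, 126 and 106 CPM in control libraries. The arms were tight and far apart, and the difference was alike in the batches, at -1.19, -1.18 and -1.08 as log2(CPM + 1). Its log2 fold change was -1.17 (SE 0.163, edgeR adjusted p = 0.0276), with an adjusted p of 0.0690 under the replicate block. Without each of the 6 libraries in turn the adjusted p lay between 0.0550 and 0.132, so the call needs all 6, while the log2 fold change stayed between -1.28 and -1.07.

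UBE2T, the ubiquitin-conjugating enzyme that works with FANCL, was the most abundant of the group, with 122, 102 and 103 CPM in knockdown libraries, against 278, 272 and 159 CPM in control libraries. Its knockdown libraries lay close together and below all control libraries (log2 fold change -1.12, SE 0.224, edgeR adjusted p = 0.0845). It passed when control batch 3 was left out (adjusted p = 0.0353). FANCD2 and FANCI are the paired targets of the core complex. FANCD2 had 56.3, 31.4 and 66.9 CPM in knockdown libraries, against 114, 211 and 149 CPM in control libraries. FANCI had 51.1, 27.7 and 44.8 CPM in knockdown libraries, against 121, 165 and 107 CPM in control libraries. Both pairs of groups were separate and widest apart in batch 2. The log2 fold changes were -1.61 (SE 0.331, edgeR adjusted p = 0.0908) and -1.67 (SE 0.272, edgeR adjusted p = 0.0506), so FANCI lay just outside the threshold. Without cells of over 20% mitochondrial reads FANCI passed (edgeR adjusted p = 0.0411), and all 4 genes passed in DESeq2.

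Among helicases, nucleases and end processing, BLM, EXO1 and RAD50 had every knockdown library below every control library, and BRIP1, RBBP8 and NBN overlapped. EXO1, the exonuclease of long-range resection, averaged 9.93 ± 5.41 CPM in knockdown and 30.03 ± 4.20 CPM in control (log2 fold change -1.60, edgeR adjusted p = 0.184, DESeq2 adjusted p = 0.00885). BLM, the helicase that dissolves joined DNA molecules, averaged 7.15 ± 5.59 CPM in knockdown and 23.3 ± 6.44 CPM in control, with 60 reads in knockdown batch 2. BRIP1, a helicase that binds BRCA1, averaged 10.6 ± 5.97 CPM in knockdown and 12.7 ± 3.90 CPM in control. RBBP8, which starts resection, averaged 47.3 ± 5.88 CPM in knockdown and 59.3 ± 18.2 CPM in control.

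NBN and RAD50 are subunits of the complex that first binds a break. NBN had 156, 113 and 107 CPM in knockdown libraries, against 130, 116 and 92.3 CPM in control libraries, with overlap (log2 fold change 0.16, SE 0.197). RAD50 averaged 83.5 ± 15.7 CPM in knockdown and 127 ± 10.2 CPM in control without overlap (log2 fold change -0.60, SE 0.171). It missed the threshold in edgeR (adjusted p = 0.180) and passed in DESeq2 (adjusted p = 0.0344). It shares 7784 exon bases with the same-strand annotation AC116366.3, so its reads are uncertain. The difference between the 2 genes was not tested.

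Of the damage signalling kinases, ATM, ATR and CHEK2 overlapped between arms and CHEK1 did not. ATM, the kinase that answers breaks, had 71.8, 85.1 and 78.5 CPM in knockdown libraries, against 92.7, 73.2 and 63.4 CPM in control libraries. The arms were interleaved around a log2 fold change of 0.04 (SE 0.178). ATR, the kinase of stalled forks, averaged 77.9 ± 13.3 CPM in knockdown and 61.3 ± 5.00 CPM in control (log2 fold change 0.34, edgeR adjusted p = 0.470), the highest fold change of the 33. CHEK1, its downstream kinase, averaged 27.1 ± 10.2 CPM in knockdown and 53.7 ± 11.6 CPM in control without overlap (log2 fold change -0.99, edgeR adjusted p = 0.254, DESeq2 adjusted p = 0.0476). CHEK2, downstream of ATM, averaged 36.2 ± 18.1 CPM in knockdown and 39.4 ± 7.82 CPM in control.

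Per length of exons, levels ranged widely between the genes. UBE2T had 65.9 CPM per kilobase (RPKM) in knockdown and 143 RPKM in control, and BARD1 46.4 RPKM in knockdown and 70.7 RPKM in control. RAD51C had 33.2 RPKM in knockdown and 35.5 RPKM in control. BRCA2 was far lower on this scale, at 1.92 RPKM in knockdown and 6.59 RPKM in control, and XRCC3 lowest, at 0.0278 RPKM in knockdown and 0.0814 RPKM in control. Lengths are those of all annotated exons, which a given transcript need not use.

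The summed libraries hide how many cells carry each transcript, so cells with at least 1 read were counted and their share was compared as 1 value per arm and batch. A cell had a read for 15.7 ± 0.365 of the 33 genes in knockdown and for 19.1 ± 1.20 in control (SD over 3 batches). With every cell thinned to 100000 reads, the numbers were 11.9 ± 0.346 in knockdown and 14.7 ± 1.13 in control. For 11 genes (33.3%) the share was below every control batch in every knockdown batch, where this held for 5.85% of all genes tested. For 0 of the 33 genes it was the other way round with at least 1 read, a direction that was not counted over all genes. With at least 5 reads in a cell, it was the other way round for ATM. After thinning, 13 genes (39.4%) met the same condition, where 6.16% of all genes did. With 3 values against 3, the exact two-sided permutation test cannot give a p below 0.1, which is what these 11 genes have.

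BRCA1 had a read in 34.8%, 21.5% and 29.5% of knockdown cells, against 63.2%, 68.2% and 65.7% of control cells. Among cells with a read, the median BRCA1 level averaged 62.6 ± 0.678 CPM in knockdown and 61.1 ± 24.0 CPM in control. By batch it was 61.9, 63.2 and 62.7 CPM in knockdown, against 87.2, 55.8 and 40.2 CPM in control. The arms were apart in the share of cells and overlapped in the level of those cells. EXO1 had a read in 7.85% ± 2.82 of knockdown cells and 24.9% ± 0.576 of control cells, and only 6, 3 and 6 knockdown cells carried it. In those few cells the median was 99.5 ± 13.0 CPM, against 26.5 ± 14.1 CPM in control cells with a read, higher in every knockdown batch than in any control batch. BLM, XRCC2, RAD51AP1, RAD54B, FANCE, FANCI and BRIP1 were also apart in share while the arms overlapped in the level of cells with a read. With BRCA1 and EXO1 this makes 9 genes separated in share and not in that level, without thinning. Overlap does not mean an equal level: RAD51AP1, RAD54B and FANCI were lower in that level within all 3 batches. Their log2 ratios of the level, knockdown over control, were -0.73, -0.92 and -1.39. After thinning, the shares of RAD54B (24.6% in knockdown, 31.5% in control) and FANCE (7.76% in knockdown, 14.2% in control) overlapped between arms (exact permutation p = 0.2 each).

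Without thinning, the reverse was seen for FANCD2, UBE2T, USP1, FANCM and RAD50, which were separated in the level of cells with a read and not in share. How many of all genes were separated in that level was not counted, so how unusual this is cannot be told. FANCD2 had a read in 79.2% ± 6.02 of knockdown cells and 88.3% ± 6.46 of control cells (exact permutation p = 0.2). The median in those cells was 33.2, 17.3 and 42.7 CPM in knockdown, against 83.7, 172 and 104 CPM in control. USP1 had a read in 77.1% ± 9.86 of knockdown cells and 81.4% ± 3.04 of control cells (exact permutation p = 0.5), with a median of 39.9 ± 10.8 CPM in knockdown cells and 77.3 ± 14.1 CPM in control cells. UBE2T was in nearly every cell, at 90.7% ± 2.42 in knockdown and 93.1% ± 3.95 in control, with medians of 68.9 ± 2.44 CPM in knockdown and 141 ± 63.3 CPM in control. Thinning separated the arms in share as well for FANCD2 (58.4% in knockdown, 78.5% in control) and UBE2T (74.6% in knockdown, 84.1% in control). The exact permutation p was 0.1 each. Thinning did not do so for USP1, FANCM or RAD50. With at least 5 reads in a cell, the shares of FANCD2 and UBE2T overlapped between arms (exact permutation p = 0.2 and 0.4).

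BRCA2 and RAD54L were separated in both readings. For RAD54L this rests on only 6, 10 and 12 knockdown cells with a read. Of its reads in knockdown batches 1, 2 and 3, 1 cell held 73.3%, 43.8% and 69.7%. BRCA2 had a read in 25.8%, 18.5% and 32.8% of knockdown cells, against 55.3%, 57.6% and 41.8% of control cells. Its median in cells with a read was 26.3, 7.19 and 35.7 CPM in knockdown, against 92.6, 116 and 84.7 CPM in control. For the remaining 17 genes, with at least 1 read and without thinning, no reading had every knockdown batch below every control batch. Among them FANCA (8.38% in knockdown, 18.6% in control) and CHEK1 (41.0% in knockdown, 52.8% in control) were separated in share after thinning (exact permutation p = 0.1 each). With at least 5 reads in a cell, FANCA, CHEK1, PALB2 and FANCB were lower in share in this way (exact permutation p = 0.1 each). ATM was among them too, with a read in 88.0% ± 2.41 of knockdown cells and 82.3% ± 3.94 of control cells. Cells with no read of a gene may still hold its RNA, since capture of a transcript in 1 cell is incomplete, and reads carry no molecular identifiers.

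**Figure D3:**
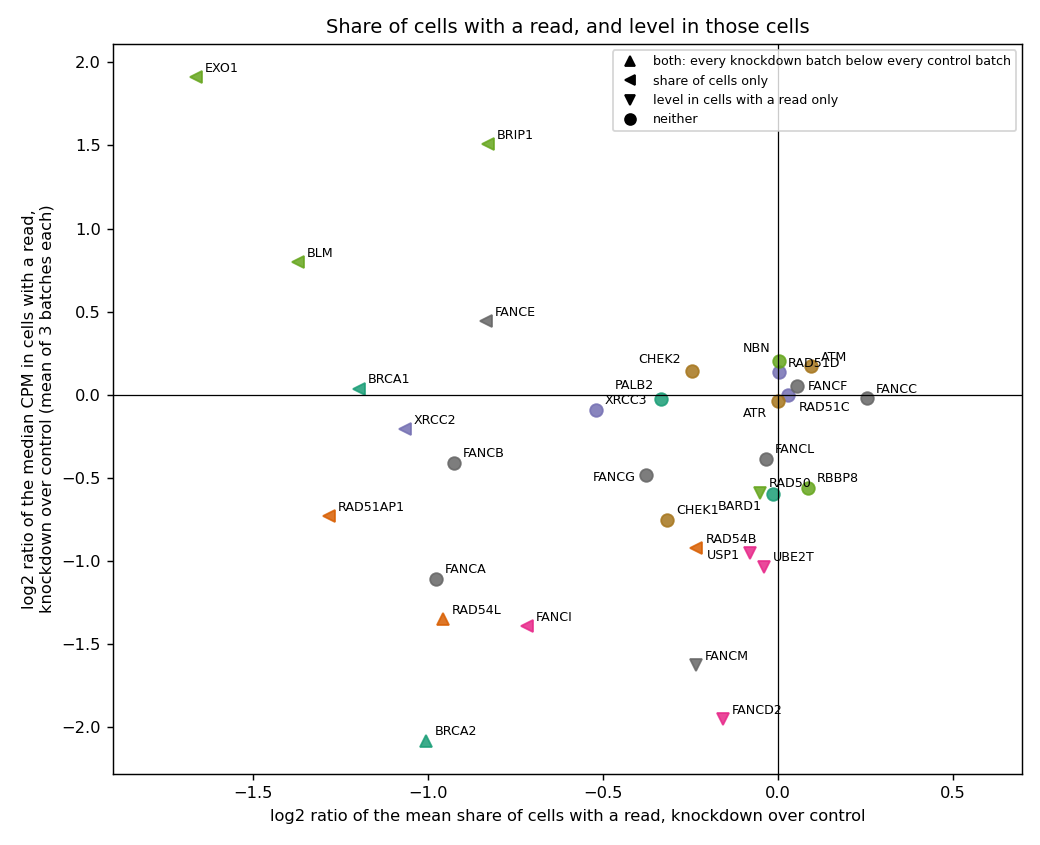
For each gene, the log2 ratio (knockdown over control) of the mean share of cells with a read runs along the horizontal axis, and that of the median CPM in cells with a read runs up the vertical axis, with colours for roles as in the plot of fold changes. BRCA1 lies left of 0 near the horizontal line, FANCD2, UBE2T and USP1 lie below 0 near the vertical line, and BRCA2 lies low on both.

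Cells of 1 library also differ by cell cycle phase, and the 33 genes were set against scores from other genes. Each cell had an S score and a G2 and M score, the mean log2(CPM + 1) of 37 S phase markers and of 54 G2 and M markers, none of them among the 33 genes. Cells were ranked within their own library, and the top 20 to 25 of each library by S score (its number of cells divided by 3, rounded down) are called S-high here. The same number was taken by G2 and M score, and the 34 to 45 cells a library in neither set are called low-scoring. The S-high and G2 and M sets share 13 to 19 cells in each library, so they are not separate phases.

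Most of the genes were higher in S-high than in low-scoring cells, in both arms. In all 3 batches this held for 22 of 33 genes (66.7%) in knockdown, where it held for 16.5% of all genes, and for 25 of 33 (75.8%) in control, where it held for 17.8%. BRCA1 averaged 97.1 ± 36.7 CPM in S-high and 4.88 ± 4.91 CPM in low-scoring knockdown cells (SD, n = 3 batches). In control cells it averaged 189 ± 61.5 CPM in S-high and 13.5 ± 6.98 CPM in low-scoring cells. UBE2T averaged 219 ± 47.4 CPM in S-high and 46.1 ± 8.69 CPM in low-scoring knockdown cells, and 423 ± 73.4 CPM and 75.2 ± 41.5 CPM in the same classes of control cells.

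Genes without this pattern included several that also overlapped between the arms. ATM averaged 83.0 ± 9.06 CPM in S-high and 81.4 ± 7.46 CPM in low-scoring knockdown cells, and 71.9 ± 20.9 CPM in S-high and 79.5 ± 19.9 CPM in low-scoring control cells. FANCF, PALB2 and RAD51D were also about even, with S-high over low-scoring log2 ratios of 0.26, 0.31 and 0.21 in knockdown and -0.14, 0.17 and 0.27 in control. RAD50 was even too, at 0.30 in knockdown and -0.29 in control, although its libraries did not overlap between arms. FANCL, also without overlap, was not higher in S-high cells in all 3 batches of either arm. Conversely, ATR, BARD1, BRIP1, FANCG, NBN and RAD51C were higher in S-high cells in all 3 batches of both arms. Yet their libraries overlapped between arms.

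Within S-high cells the knockdown arm was still lower for most of the genes. In all 3 batches this held for 20 of 33 genes (60.6%), where 13.1% of all genes did so, and within low-scoring cells for 11 of 33 (33.3%), where 13.2% of all genes did so. BRCA2 in S-high cells had 69.2, 49.5 and 69.2 CPM in knockdown, against 204, 145 and 187 CPM in control. FANCD2 averaged 98.1 ± 40.5 CPM in S-high knockdown cells and 286 ± 59.2 CPM in S-high control cells, and FANCI 88.2 ± 47.4 CPM in S-high knockdown cells and 252 ± 17.6 CPM in S-high control cells. The classes are ranks, not matched levels: the mean S score of S-high cells was 3.47 to 4.11 in knockdown libraries and 5.28 to 5.73 in control libraries. Low-scoring cells had a mean S score of 1.65 to 1.82 in knockdown libraries. In control batches 1, 2 and 3 it was 1.72, 2.55 and 1.68. The part of these scores in the differences of both classes was not tested.

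RBBP8 and CHEK2 were lower in knockdown among S-high cells and higher among low-scoring cells, in all 3 batches. CHEK2 in S-high cells had 35.4, 52.7 and 32.0 CPM in knockdown, against 92.5, 56.5 and 70.9 CPM in control. In low-scoring cells it had 20.5, 97.4 and 29.6 CPM in knockdown, against 14.6, 26.7 and 5.28 CPM in control. RBBP8 averaged 51.2 ± 8.45 CPM in S-high knockdown cells and 100 ± 28.1 CPM in S-high control cells, and 42.4 ± 14.0 CPM in low-scoring knockdown cells and 25.6 ± 9.98 CPM in low-scoring control cells. Being lower in S-high and higher in low-scoring cells in all 3 batches held for 1.23% of all genes. The classes share libraries and the difference between them was not tested.

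**Figure D4:**
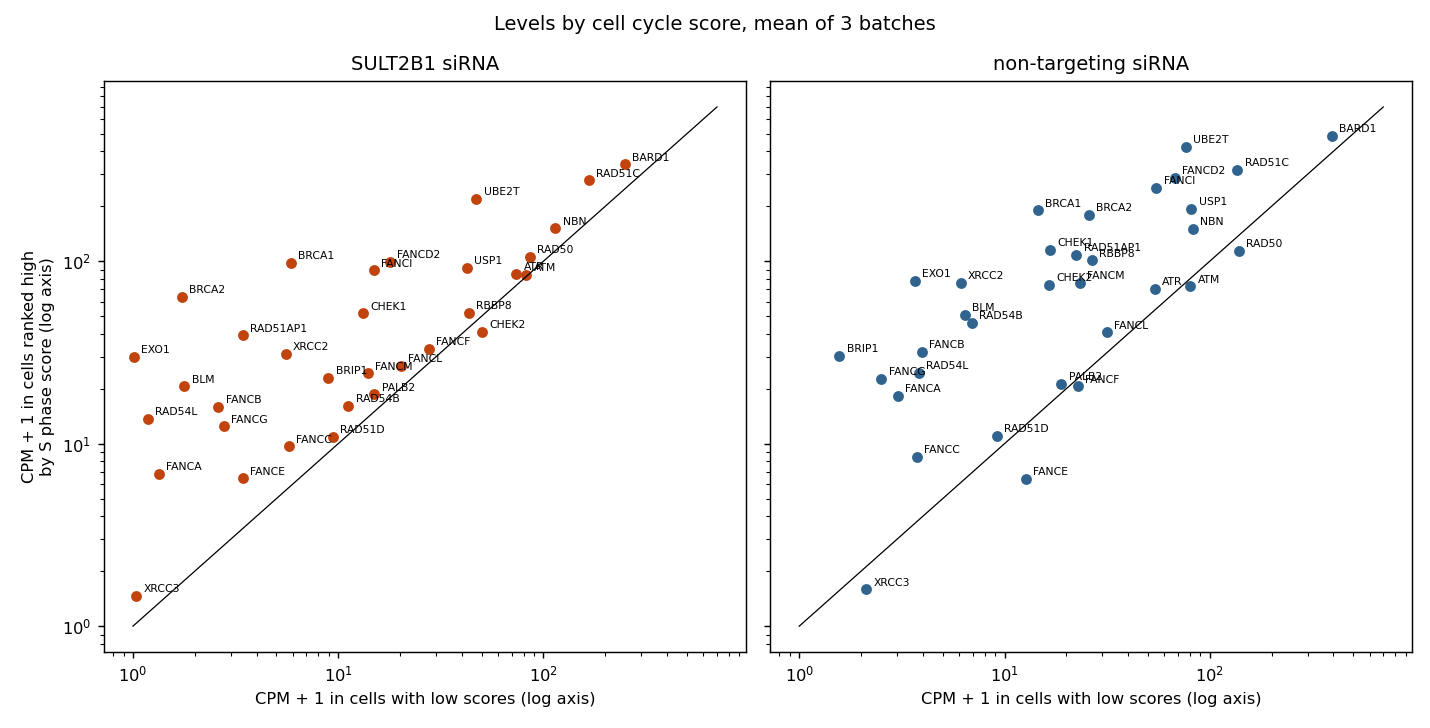
Mean CPM + 1 in S-high cells (vertical) against low-scoring cells (horizontal), both on log axes, as the mean of 3 batches, for SULT2B1 siRNA cells at left and non-targeting siRNA cells at right; the line marks equal levels. BRCA1, BRCA2, EXO1 and UBE2T lie well above the line in both panels, and ATM lies on it.

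Other repair and cell cycle genes put these values in context. Among 39 other homologous recombination genes the median log2 fold change was -0.35, 0 passed the edgeR threshold in either direction, 11 were lower and 1 higher at an unadjusted p under 0.05, and DESeq2 called 7 lower. The most abundant were SEM1, a small partner of BRCA2, and RPA1, a subunit of the single-strand binding complex, with log2 fold changes of 0.06 and -0.06. Among 15 other Fanconi genes the median was -0.18, with 0 called by either tool and 2 lower at an unadjusted p under 0.05. Among 21 tested genes of break and fork signalling the median was -0.33, with 0 called by edgeR, 9 lower and 2 higher at an unadjusted p under 0.05, and 7 called lower and 1 higher by DESeq2. RIF1, which limits resection, averaged 85.7 ± 11.3 CPM in knockdown and 143 ± 11.7 CPM in control (edgeR adjusted p = 0.0809).

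Of the repair routes that do not use a sister, end joining and both kinds of excision repair had medians close to 0. The medians were -0.04 over 10 genes of non-homologous end joining, -0.37 over 7 of mismatch repair, -0.07 over 16 of nucleotide excision repair and 0.00 over 18 of base excision and single-strand break repair. Among the last, APEX1, the nuclease that cuts at abasic sites, fell, with 200.8 ± 7.60 CPM in knockdown and 366 ± 25.6 CPM in control (edgeR adjusted p = 0.0145, block adjusted p = 0.0977). It was the only edgeR call in these 4 lists. At an unadjusted p under 0.05 the same lists had 2, 1, 2 and 4 genes lower and 0, 0, 3 and 1 higher, and DESeq2 called 1, 0, 2 and 4 lower and 0, 0, 1 and 0 higher.

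The cell cycle markers were lower as a list, like the recombination genes. The 37 S phase markers had a median of -0.88 and summed to 1452 to 1801 CPM in knockdown libraries and 2302 to 3093 CPM in control libraries. RRM2, a subunit of ribonucleotide reductase, and SLBP, the histone messenger binding protein, fell (edgeR adjusted p = 0.0251 and 0.0114, block adjusted p = 0.153 and 0.0977). The 54 G2 and M markers had a median of -1.32 and summed to 2566 to 4781 CPM in knockdown libraries and 5049 to 9739 CPM in control libraries. None of them passed in edgeR, 38 were lower at an unadjusted p under 0.05, and DESeq2 called 29 lower. The 20 genes of E2F, RB family and DREAM complex had a median of -0.54 with 0 called by edgeR, 8 lower at an unadjusted p under 0.05 and 4 called lower by DESeq2. The part of cell cycle phase in the difference of the 33 genes was not tested.

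**Figure D5:**
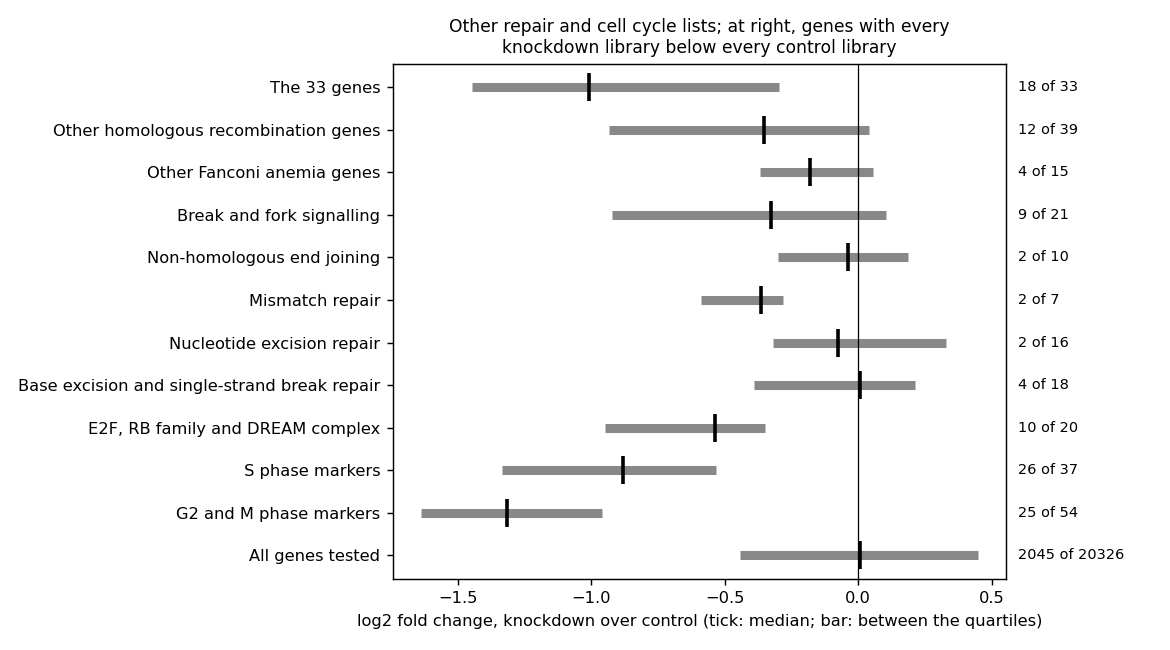
Median (tick) and range between the quartiles (bar) of the log2 fold changes, knockdown over control, of the 33 genes, of other repair and cell cycle lists and of all genes tested, with the number of genes whose knockdown libraries all lie below all control libraries at right. The 33 genes (median -1.01, 18 of 33) lie between the S phase markers (-0.88) and the G2 and M markers (-1.32), while excision repair and end joining lie near 0.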

How the data were processed

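The deposited file holds raw read counts, 1 whole number for each gene in each cell, not normalized; reads carried no molecular identifiers. The submitters' processing notes name the build GRCh38.p3 and the tools edgeR 3.2.2, HTSeq 0.6.1, TopHat2 2.1.0 and FastQC 0.11.3. Neither annotation release nor strand setting is given in the sources used here. Per the labels' protocols, capture sites with 0 or several cells and dead-stained cells were left out; no doublet caller was run. Of 414 samples, 9 were in no group and 4 labelled cells had no column; 4 columns of values were not used.

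Counts were summed per arm and batch and fitted with edgeR 4.0.16 (limma 3.58.1, R 4.3.3; quasi-likelihood, robust, TMM, filterByExpr, no covariates, Benjamini-Hochberg over 20326 genes). CPM of summed libraries use TMM library sizes. CPM of cells with a read and of S-high and low-scoring cells use each cell's total reads, without TMM. Log2 ratios that involve S-high or low-scoring cells were taken on mean CPM + 1. On simulated data the script recovered the changed genes. The simulated spread and sizes of change were not matched here to these data, whose common dispersion was 0.497. That run therefore checks the code only and says nothing about power in these data. Alternatives were RLE factors, no filter, DESeq2 1.42.0 on the same genes, batch as a replicate block, each library left out, no cells over 20% mitochondrial reads, and equal weight per cell; shares were repeated with at least 5 reads and after thinning. The labels' batch number pairs the libraries; correlations of paired deviations were 0.0780, 0.000547 and 0.000233 for batches 1, 2 and 3. Python 3.11.15 with numpy 2.4.6, pandas 2.3.3, scipy 1.17.1 and matplotlib 3.10.9 was used.

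The members and lists were chosen with earlier results of these data known. All 33 genes are named: every library for called genes and for the most abundant of each role, mean levels for the rest, and library values also for BRCA1, FANCD2, FANCI and the cell-class examples, which were chosen after their values were seen. From each other list, called genes come first and then up to 2 of the most abundant.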

Additional observations from a re-analysis of the deposited data

Results flagged for a closer look

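In every batch, RBBP8 and CHEK2 were lower in knockdown among S-high cells and higher in knockdown among low-scoring cells. For RBBP8 the log2 ratio of knockdown over control was -0.956 in S-high cells and 0.707 in low-scoring cells. For CHEK2 it was -0.856 in S-high cells and 1.60 in low-scoring cells, where knockdown batch 2 alone held 97.4 CPM. The difference between the classes was not tested, and the classes were defined from the data.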

How the results depend on the processing

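The number of the 33 genes called lower was 2 in edgeR, 5 with no filter on low counts (adding FANCD2, FANCI and UBE2T), 13 with DESeq2, 0 with batch as a replicate block, which changed no call of the 33 but those of BRCA2 and USP1, and 0 to 2 with each library left out. RLE factors and equal weight per cell kept it at 2, and removing cells over 20% mitochondrial reads gave 3. Leaving out the 2 cells read again, an alternative chosen after seeing the data, changed no call of the 33. Over all genes, 78 were lower and 80 higher; no filter gave 177 lower and 132 higher, DESeq2 783 and 659, the replicate block 12 and 26, and each library left out 17 to 33 and 29 to 39. The count of 18 genes lower within all 3 batches was also 18 with RLE factors. FANCE, at -0.86, turned sign to 0.19 without control batch 2 and ran from -1.27 to -0.68 without any other library; without cells over 20% mitochondrial reads it was at -0.020. Other log2 fold changes nearer 0 also turned sign with a library left out; the cause was not tested: RAD51C ran from -0.29 to 0.15, RAD51D from -0.578 to 0.0781, FANCC from -0.22 to 0.65, FANCF from -0.14 to 0.44, BRIP1 from -0.72 to 0.10, NBN from -0.034 to 0.26, ATM from -0.0837 to 0.19 and CHEK2 from -0.59 to 0.14. With equal weight per cell ATM was at -0.0374 and CHEK2 at 0.12; the cause was not tested. The difference in the share of cells with a USP1 read, knockdown minus control, ran from -9.61 to 0.146 percentage points. The common dispersion was 0.497 with 3 libraries an arm. Depth limits the scarcest gene, XRCC3, with 7 to 75 reads a library; a share of cells with a read rests on 61 to 76 cells a library.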
